A study of Mus musculus with 24 samples.

Results

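The 10 Cyp2c genes described here (Cyp2c29, Cyp2c37, Cyp2c38, Cyp2c39, Cyp2c40, Cyp2c50, Cyp2c54, Cyp2c55, Cyp2c67 and Cyp2c70) were taken by symbol from the 54532 rows of a table of gene counts from mouse liver, and all 10 passed the filter on low counts that left 15090 genes. The table holds 24 mRNA libraries. Of these, 12 came from mice lacking 3 transcription factors, with the genotype Hlf-/-/Dbp-/-/Tef-/- (knockout), and 12 from Hlf+/+/Dbp+/+/Tef+/+ mice (wild type). Mice of both genotypes were 12 to 16 weeks old, fed ad libitum, and sampled every 4 h at zeitgeber times (ZT, hours after lights on) ZT04 to ZT24. Each genotype has 2 libraries at each time. The labels name no tissue limit of the deletion. They also leave out whether the 2 libraries of a time are 2 animals, so that each p-value here reflects a spread among libraries that could be purely technical.

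Cytochromes P450 of the Cyp2c group are haem enzymes of the endoplasmic reticulum that insert oxygen into drugs, steroids, retinoids and fatty acids, with electrons passed on from P450 oxidoreductase. In liver they are known for turning arachidonic and linoleic acid into epoxy and hydroxy fatty acids. Mice carry many Cyp2c genes side by side, copies of one another that have kept closely similar sequences. Dbp, Tef and Hlf are the PAR bZip factors, clock-driven proteins that bind a short element called the D-box and are known regulators of liver detoxification genes.

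All 10 genes lie on chromosome 19 of mm10, in the order Cyp2c55, Cyp2c29, Cyp2c38, Cyp2c39, Cyp2c67, Cyp2c40, Cyp2c37, Cyp2c54, Cyp2c50 and Cyp2c70, between bases 39007019 and 40187333, a stretch of 1180 kb. All are annotated as protein coding. Cyp2c37 (ENSMUSG00000042248) runs on the plus strand at chr19:39992424-40012243, Cyp2c54 (ENSMUSG00000067225) on the minus strand at chr19:40037940-40073827 and Cyp2c50 (ENSMUSG00000054827) on the plus strand at chr19:40089688-40113950. These 3 genes are direct neighbours and together span 121.5 kb. Their coding sequences were 95.1% identical between Cyp2c37 and Cyp2c54, 96.1% between Cyp2c37 and Cyp2c50 and 95.2% between Cyp2c54 and Cyp2c50. Cyp2c38 and Cyp2c39 were 94.2% identical, and Cyp2c67 and Cyp2c40 were 92.2% identical. Cyp2c70, at the far end, was the most distinct for reads, with none of its 50-base exon windows found in another Cyp2c gene.

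Copies this close could have shared reads, and the sources used here do not state how the authors' counting treated such reads. Of all 50-base exon windows, 69.9% in Cyp2c37, 74.3% in Cyp2c54 and 81.7% in Cyp2c50 occurred in no other Cyp2c gene. The share was 95.9% for Cyp2c29, 92.5% for Cyp2c38, 88.6% for Cyp2c39 and 99.5% for Cyp2c55. It was lowest for Cyp2c67 at 47.2% and for Cyp2c40 at 39.7%, so the counts of Cyp2c67 and Cyp2c40 are the least certain. The gene model of Cyp2c29 overlaps the pseudogene Cyp2c53-ps on the same strand over 5581 bases.

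The 200 bases before the start of 6 of these genes are shown from RefSeq (build GRCm38.p6), 5′ to 3′ on each gene's own strand. They are shown because the first pair fell together in the knockout and Cyp2c29 had a smaller log2 fall. Cyp2c70 did not pass the test, and the last pair had the smallest interaction p of the 10. Capitals mark CAAAGTC, a core of the element bound by the liver receptor HNF4A, and TATAAA, the letters of a TATA box, each searched on both strands.
Cyp2c37, chr19:39992224-39992423, plus strand: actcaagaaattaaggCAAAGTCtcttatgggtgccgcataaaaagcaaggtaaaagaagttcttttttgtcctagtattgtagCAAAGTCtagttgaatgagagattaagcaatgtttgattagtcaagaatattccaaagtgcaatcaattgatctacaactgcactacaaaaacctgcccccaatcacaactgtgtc
Cyp2c50, chr19:40089479-40089678, plus strand: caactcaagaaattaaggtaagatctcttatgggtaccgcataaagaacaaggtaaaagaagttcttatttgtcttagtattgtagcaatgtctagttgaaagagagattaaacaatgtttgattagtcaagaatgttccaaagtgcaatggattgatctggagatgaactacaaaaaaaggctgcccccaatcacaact
Cyp2c29, chr19:39286885-39287084, plus strand: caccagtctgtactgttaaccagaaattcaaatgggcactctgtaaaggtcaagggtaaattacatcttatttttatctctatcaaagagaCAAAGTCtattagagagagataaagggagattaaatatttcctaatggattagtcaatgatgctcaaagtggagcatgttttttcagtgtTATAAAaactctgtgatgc
Cyp2c70, chr19:40187287-40187486, minus strand: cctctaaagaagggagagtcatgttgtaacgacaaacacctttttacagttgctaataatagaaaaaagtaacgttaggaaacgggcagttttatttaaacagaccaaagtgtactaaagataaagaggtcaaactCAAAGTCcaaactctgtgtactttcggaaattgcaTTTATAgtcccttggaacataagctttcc
Cyp2c38, chr19:39463076-39463275, minus strand: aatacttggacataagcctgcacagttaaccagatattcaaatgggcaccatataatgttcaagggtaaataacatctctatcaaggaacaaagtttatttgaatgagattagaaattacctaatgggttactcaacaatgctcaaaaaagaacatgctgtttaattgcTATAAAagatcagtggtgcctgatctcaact
Cyp2c39, chr19:39510622-39510821, plus strand: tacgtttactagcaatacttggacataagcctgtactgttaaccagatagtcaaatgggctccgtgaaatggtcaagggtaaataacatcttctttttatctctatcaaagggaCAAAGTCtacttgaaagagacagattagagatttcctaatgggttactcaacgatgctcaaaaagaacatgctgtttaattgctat

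A RefSeq promoter of 250 bases before to 50 bases after the start was at hand for 9 of the 10 genes, all but Cyp2c54. The Cyp2c37 and Cyp2c50 promoters were 88% identical over these 300 bases, while Cyp2c38 and Cyp2c39 were 79.7% identical. The D-box sequences TTATGTAA and TTACGTAA, searched on both strands, were in 0 of the 9 promoters and in 1.06% of all 32851 promoters in the table. The looser TTANGTAA, which includes both, was in 1 of 9, Cyp2c38, and in 2.32% of all. CAAAGTC was in 6 of 9 (Cyp2c29, Cyp2c39, Cyp2c67, Cyp2c40, Cyp2c70 and, at 2 places, Cyp2c37) and in 4.44% of all. TATAAA was in 7 of 9, all but Cyp2c37 and Cyp2c50, and in 13.6% of all. The match of Cyp2c39 begins at base −3 and runs past the start, so it is not marked above. That of Cyp2c40 begins at base 41 after the start. A match is a description of these letters in this window and not a measured binding site, and the absence of one says nothing of elements elsewhere.

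Library totals ran from 14613001 to 19288322 counts. The deleted genes were low where the labels say so: Hlf averaged 1.55 ± 1.02 normalised counts (CPM, scaled to library size) in knockout and 72.7 ± 18.1 CPM in wild type, Tef 14.7 ± 9.82 and 185 ± 103 CPM, and Dbp 0.0199 ± 0.0383 and 15.4 ± 20.3 CPM (SD, n = 12 each). The wild-type libraries of replicate 1 stood apart in how their departure from the median library tracked GC content across genes. The mean r of that relation was −0.0514 ± 0.0578 in knockout replicate 1, −0.228 ± 0.0795 in knockout replicate 2, 0.437 ± 0.195 in wild-type replicate 1 and −0.0599 ± 0.10 in wild-type replicate 2 (SD, n = 6 each). Between the 2 libraries of a group, 3.73% to 4.55% of genes differed more than 2-fold in knockout, against 5.11% to 28.7% in wild type. Wild-type ZT12 replicate 1 stood apart from replicate 2 in several Cyp2c genes, with a log2 difference of −1.45 for Cyp2c67, −0.73 for Cyp2c29, 1.02 for Cyp2c38 and 1.02 for Cyp2c39.

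The largest log2 falls in the knockout were those of the 3 neighbouring genes Cyp2c37, Cyp2c54 and Cyp2c50. They are fatty acid epoxygenases and hydroxylases, which make epoxy and hydroxy products from arachidonic and linoleic acid. Cyp2c50 averaged 21.4 ± 7.05 CPM in knockout and 659 ± 61.4 CPM in wild type, Cyp2c54 16.3 ± 7.53 CPM in knockout and 466 ± 68.1 CPM in wild type, and Cyp2c37 11.7 ± 4.88 CPM in knockout and 113 ± 14.8 CPM in wild type (SD, n = 12 each). Cyp2c29 had a smaller log2 fall, although the largest fall in CPM. Cyp2c40 was higher at a level under 1 CPM, and Cyp2c55, Cyp2c38, Cyp2c39, Cyp2c67 and Cyp2c70 did not pass the test of the mean over the 6 times.

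In that test (edgeR quasi-likelihood F-test, adjusted over all 15090 genes and called at an adjusted p under 0.05), 4 of the 10 genes were lower in the knockout, where 21.1% of all genes tested were lower. In the other direction, 1 of 10 was higher, against 12.1% of all genes. The median log2 change was −0.11 over the 10 genes and −0.02 over all genes tested. With 10 genes these counts alone do not set the group apart. The 3 largest changes ranked high among all genes: 20 genes of 15090 had a lower log2 change than Cyp2c50, 22 had a lower one than Cyp2c54 and 44 a lower one than Cyp2c37.

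Cyp2c50 ranged in single libraries from 11.3 CPM over a median of 20.6 CPM up to 38.8 CPM in knockout, and from 558 CPM over a median of 678 CPM up to 771 CPM in wild type. Cyp2c54 had a lowest value of 4.78, a median of 16.0 and a highest value of 32.2 CPM in knockout, against 327, 483 and 589 CPM in wild type. Cyp2c37 had a lowest value of 5.35, a median of 10.2 and a highest value of 22.1 CPM in knockout, against 85.2, 114 and 134 CPM in wild type. For each of these 3 genes all 12 knockout libraries lay below all 12 wild-type libraries, as 0.921% of all genes tested did. No other of the 10 genes separated the genotypes in this way. The highest knockout value of all 3 came from ZT04 replicate 2.

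The log2 change of Cyp2c50 was −4.97 (SE 0.15, edgeR adjusted p = 3.82e-12), a fitted level 31.4-fold lower in knockout. That of Cyp2c54 was −4.93 (SE 0.18, edgeR adjusted p = 7.41e-11), or 30.5-fold lower, and that of Cyp2c37 was −3.33 (SE 0.15, edgeR adjusted p = 1.16e-09), or 10.1-fold lower. The 95% interval of Cyp2c37 ran from −3.66 to −3.0 and did not reach those of Cyp2c54, −5.32 to −4.54, and Cyp2c50, −5.29 to −4.66. The last 2 intervals overlapped over most of their length. As these are whole livers, fewer cells of a type and less RNA per cell cannot be told apart.

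**Figure D1:**
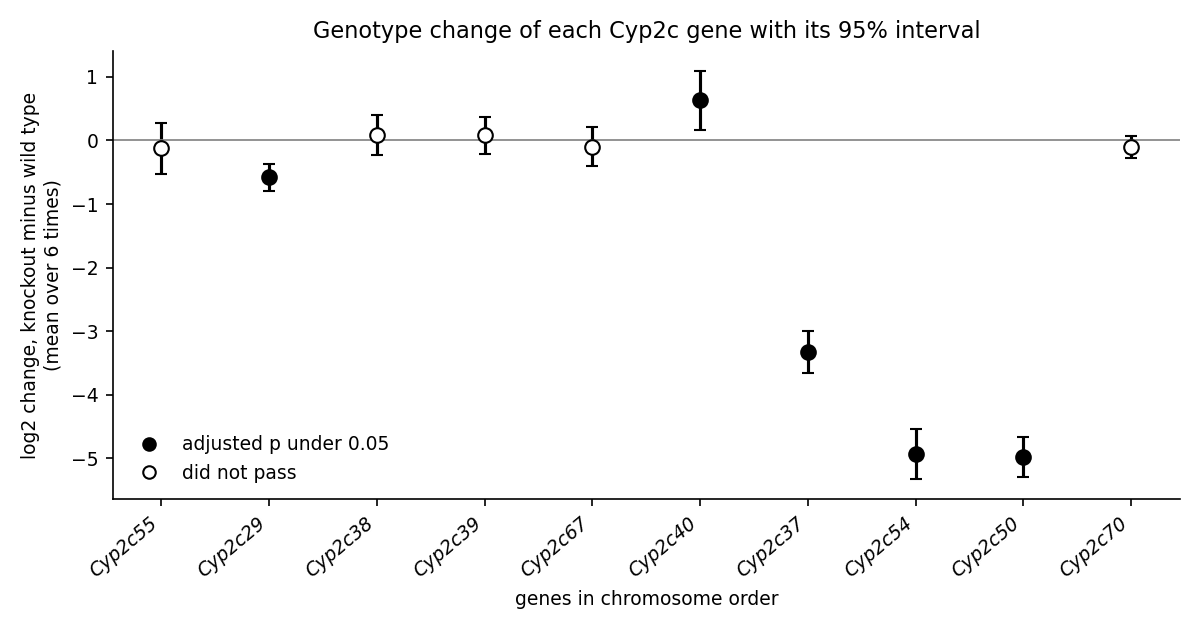
Log2 change of each gene, knockout minus wild type, as the mean over 6 times (y axis), with genes in chromosome order (x axis). Points are estimates from 24 libraries, bars are 95% intervals, and filled points passed an adjusted p under 0.05; Cyp2c37, Cyp2c54 and Cyp2c50 lie between −3.33 and −4.97 while their neighbours Cyp2c40 and Cyp2c70 lie at 0.63 and −0.10.

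Cyp2c29, an arachidonic acid epoxygenase and the most abundant of the family in both genotypes, had a smaller log2 fall in the knockout. In CPM it fell more than any other member, from a mean of 3562 in wild type to 2350.5 in knockout. It ranged from 1609 CPM over a median of 2379.6 CPM up to 2898 CPM in knockout, and from 1627 CPM over a median of 3753 CPM up to 4735 CPM in wild type. The ranges overlapped at wild-type ZT12, whose libraries, at 1627 and 2701 CPM, were the only wild-type ones under the highest knockout value. The log2 change was −0.58 (SE 0.10, edgeR adjusted p = 0.000749, 95% interval −0.79 to −0.37). By time it was −0.66, −0.88, −0.01, −0.90, −0.33 and −0.70 from ZT04 to ZT24, with no call at any single time (edgeR). The test of whether it varied with time, the genotype by time interaction, did not pass (edgeR adjusted p = 0.892). The averaged change was −0.63 without wild-type ZT12 replicate 1 and −0.70 without ZT12 in both genotypes, with adjusted p of 0.000224 and 0.000230. With replicate 1 of both genotypes alone it was −0.60 and did not pass (edgeR adjusted p = 0.0774). Over the alternatives run it reached from −0.91, under the replicate block with GC and length correction, to −0.45, with no scaling factor.

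Hepatocyte markers moved in the same direction as these genes. All 6 of the list (Alb, Apoa1, Ttr, Serpina1a, Tat and Hnf4a) were lower in knockout, with a median log2 change of −0.43. Over all genes tested 21.1% were lower and 12.1% higher. Their summed level ran from 35760.2 to 59584 CPM in knockout and from 60219.9 to 89365 CPM in wild type. Most of this sum was Alb, which averaged 35381 CPM in knockout and 62607 CPM in wild type. The sums averaged 47763 CPM and 79355 CPM. Of the 9 pericentral hepatocyte markers 3 were lower and 2 higher, and their sum overlapped between genotypes, at 10998 to 16484 CPM in knockout and 10349 to 20635 CPM in wild type. Of 8 periportal markers 2 were lower and 0 higher by edgeR. The part of these shifts in the changes of Cyp2c29, Cyp2c37, Cyp2c54 and Cyp2c50 was not tested.

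Cyp2c40, known for hydroxylating arachidonic acid near its end, was the only member called higher, with a log2 change of 0.63 (SE 0.22, edgeR adjusted p = 0.0384). It had 3 to 15 counts per library. Its level was 0.228 to 0.860 CPM with a median of 0.377 CPM in knockout, and 0.183 to 0.459 CPM with a median of 0.294 CPM in wild type, and these ranges overlapped. The call was lost when any 1 of 12 of the 24 libraries was left out, with adjusted p from 0.0178 to 0.126 over all 24 omissions, and DESeq2 gave 0.0910.

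The other 5 genes had intervals around 0. Cyp2c70, the enzyme that makes muricholic acids from chenodeoxycholic acid in mice, averaged 884 ± 177 CPM in knockout and 957 ± 210 CPM in wild type (SD, n = 12 each), with a log2 change of −0.10 (95% interval −0.28 to 0.07). Cyp2c67 averaged 444 ± 103 and 472 ± 120 CPM in knockout and in wild type, with a log2 change of −0.10 (−0.40 to 0.21), which was −0.19 without wild-type ZT12 replicate 1. Cyp2c39, known as a retinoic acid hydroxylase, averaged 249 ± 81.1 CPM in knockout and 260 ± 174 CPM in wild type, a log2 change of 0.08 (−0.21 to 0.37), which was 0.18 without wild-type ZT12 replicate 1. Its near copy Cyp2c38 averaged 95.3 ± 33.6 CPM in knockout and 96.3 ± 56.4 CPM in wild type, a log2 change of 0.09 (−0.23 to 0.40), which was 0.19 without that library. Cyp2c55, better known from the intestine, averaged 2.96 ± 1.36 CPM in knockout and 3.27 ± 1.55 CPM in wild type, a log2 change of −0.13 (−0.53 to 0.28). Of 5 intestinal markers only Fabp2 passed the filter, and it was called higher in knockout (log2 change 0.65, edgeR adjusted p = 0.0487). Fabp2 averaged 39.4 CPM in knockout and 25.6 CPM in wild type. The next highest marker, Vil1, averaged 0.184 CPM in knockout and 0.174 CPM in wild type. The summed level of all 5 was 24.1 to 51.2 CPM in knockout and 6.65 to 44.2 CPM in wild type. This sum was nearly all Fabp2, and its part in the Cyp2c55 values was not tested. The farthest that any of these 5 intervals reached from 0 was −0.53, for Cyp2c55.

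Summed over the 10 genes, the family fell to 4076 ± 556 CPM in knockout, against 6589 ± 892 CPM in wild type (SD, n = 12 each), values with no test. Cyp2c37, Cyp2c54 and Cyp2c50 together made up 1.21% ± 0.448 of the family's counts in knockout and 19% ± 2.41 in wild type, with ranges of 0.715% to 2.32% and 16.9% to 25.3%. Cyp2c29 made up 57.6% ± 4.74 in knockout and 53.3% ± 6.78 in wild type. The mean sum fell by 2513 CPM, of which the 3 neighbours held 47.3% and Cyp2c29 held 48.2%.

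**Figure D2:**
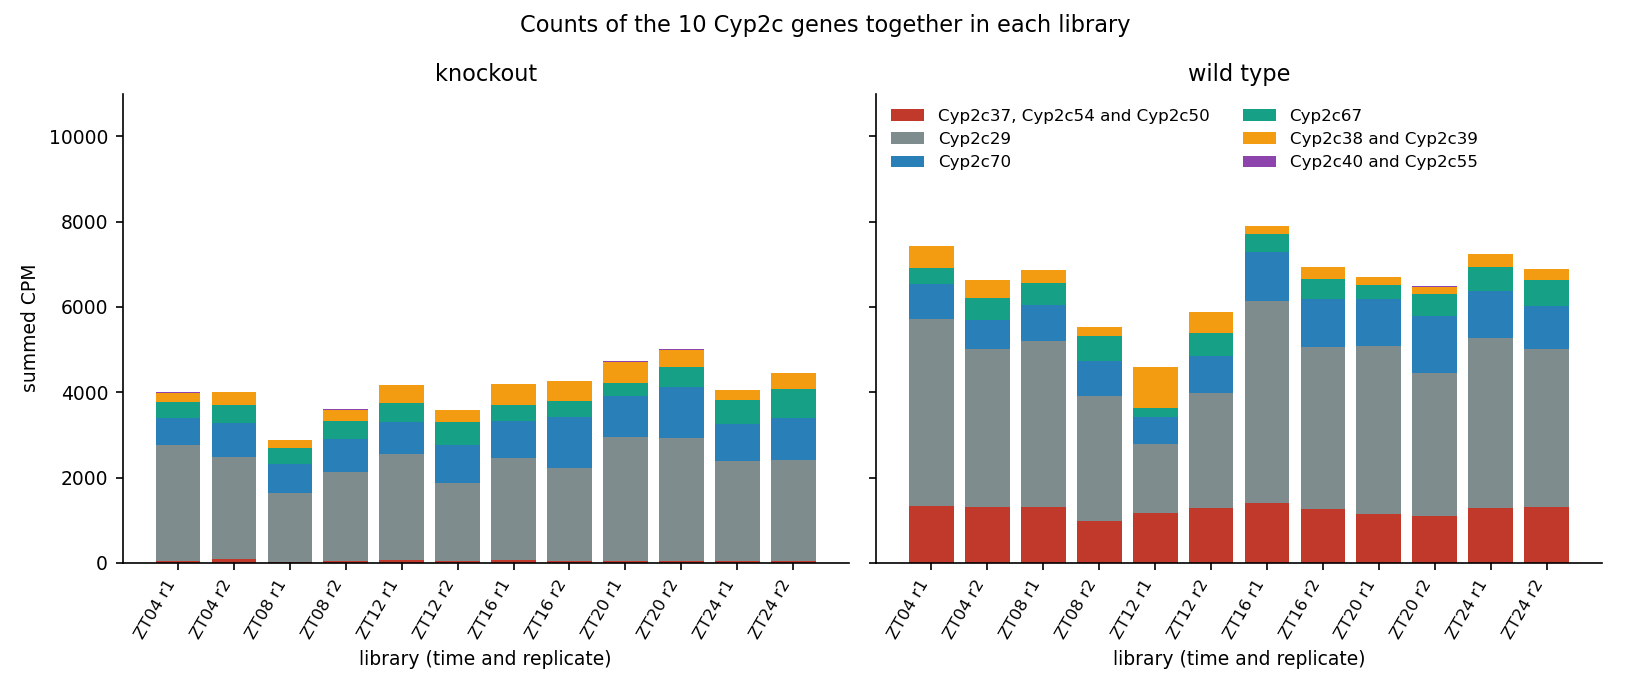
Summed CPM of the 10 genes (y axis) in each knockout library (left) and wild-type library (right), ordered by time with r1 and r2 as replicates 1 and 2 (x axis), stacked by gene. The bottom segment, Cyp2c37, Cyp2c54 and Cyp2c50, is barely visible in all 12 knockout libraries at 0.715% to 2.32% of the sum and is 16.9% to 25.3% of it in wild type.

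Levels of different genes can be compared per length, here as CPM per kb of exon. In knockout Cyp2c29 was highest at 768 ± 128, followed by Cyp2c70 at 446 ± 89.3, Cyp2c67 at 256 ± 59.4, Cyp2c39 at 137 ± 44.6 and Cyp2c38 at 33.2 ± 11.7. Cyp2c54 at 9.11 ± 4.21, Cyp2c50 at 7.35 ± 2.42 and Cyp2c37 at 6.42 ± 2.67 came next, with overlapping ranges, then Cyp2c55 at 1.49 ± 0.683 and Cyp2c40 at 0.235 ± 0.112 (SD, n = 12 each). In wild type Cyp2c29 was highest at 1164 ± 270, followed by Cyp2c70 at 483 ± 106. Cyp2c67 at 273 ± 69.2, Cyp2c54 at 261 ± 38.1 and Cyp2c50 at 226 ± 21 were next and had overlapping ranges. Cyp2c39 at 143 ± 95.7, Cyp2c37 at 62.1 ± 8.09, Cyp2c38 at 33.6 ± 19.7, Cyp2c55 at 1.64 ± 0.777 and Cyp2c40 at 0.148 ± 0.0501 closed the order. The wild-type range of Cyp2c39, 65.4 to 410, overlapped those of all genes from Cyp2c70 to Cyp2c37. That of Cyp2c38, 15.6 to 76.9, covered that of Cyp2c37. In both genotypes Cyp2c70 overlapped with Cyp2c29 and with Cyp2c67. In knockout Cyp2c67 also overlapped with Cyp2c39, and Cyp2c54 with Cyp2c38 and with Cyp2c55. In wild type Cyp2c70 also overlapped with Cyp2c54, and Cyp2c38 with Cyp2c39. The ranks are those of the means only. Cyp2c54, Cyp2c50 and Cyp2c37 thus held ranks 6, 7 and 8 in knockout, against ranks 4, 5 and 7 in wild type. With the longest transcript in place of all exons, Cyp2c50 stood above Cyp2c54 in both genotypes, at 11.8 in knockout and 361 in wild type.

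**Figure D3:**
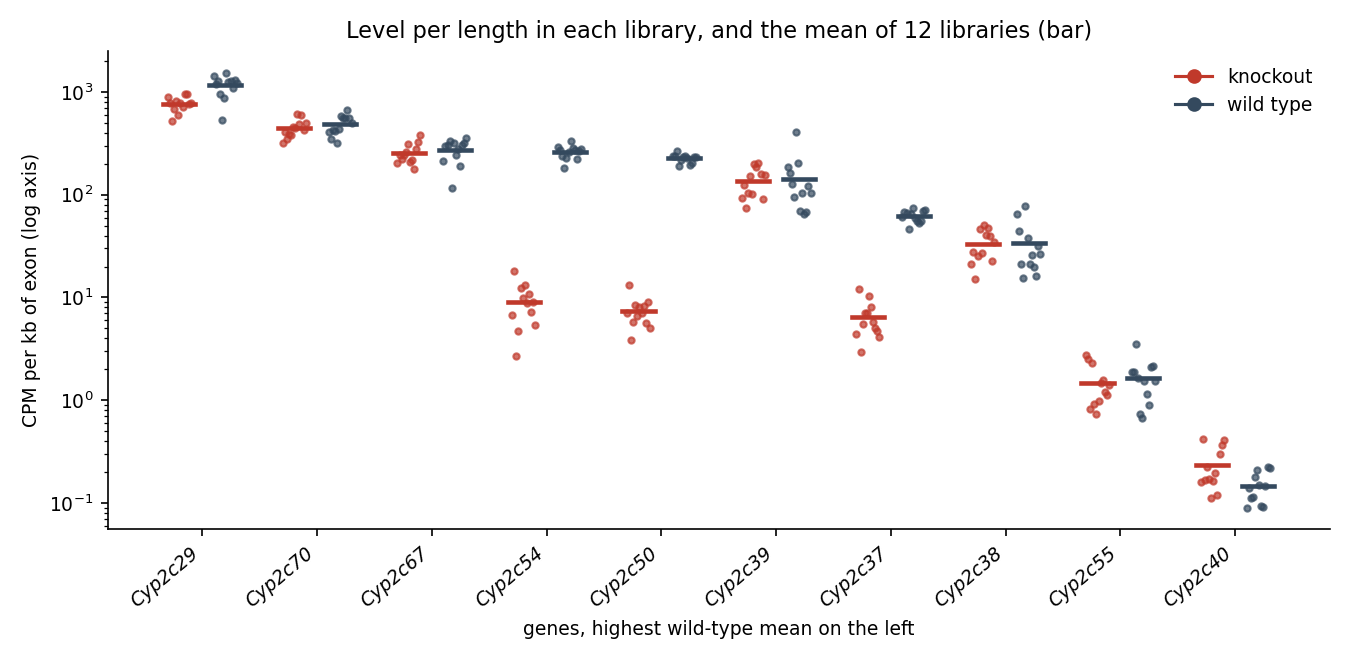
CPM per kb of exon on a log axis (y axis) for each gene, ordered by the wild-type mean (x axis), with knockout libraries left of wild-type libraries. Each point is a library and each bar the mean of 12; Cyp2c54, Cyp2c50 and Cyp2c37 show a gap between the genotypes, and the points of all other genes overlap.

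The loss was present at every time of day. At each of the 6 times 3 of the 10 genes were called lower, and they were Cyp2c37, Cyp2c54 and Cyp2c50 each time (edgeR). The share of all genes called lower was 0.696% at ZT04, 0.603% at ZT08, 1.15% at ZT12, 1.01% at ZT16, 2.47% at ZT20 and 0.384% at ZT24. The log2 change of Cyp2c50 was −4.55, −5.57, −4.90, −4.93, −4.84 and −5.06 in that order of times, with an SE of 0.35 to 0.37. For Cyp2c54 it was −4.51, −5.83, −4.44, −4.80, −4.77 and −5.24 (SE 0.44 to 0.47), and for Cyp2c37 it was −2.96, −3.75, −3.28, −2.65, −3.35 and −3.99 (SE 0.36 to 0.39). At ZT08 the libraries held 11.3 and 16.8 CPM of Cyp2c50 in knockout, against 771 and 558 CPM in wild type, and 4.78 and 8.41 CPM of Cyp2c54 in knockout, against 424 and 327 CPM in wild type. The largest adjusted p of these 18 calls was 0.00128, for Cyp2c37 at ZT16. Whether the size of the loss varied with time was tested as the genotype by time interaction and did not pass for Cyp2c37 (edgeR adjusted p = 0.909), Cyp2c54 (0.918) or Cyp2c50 (0.960).

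**Figure D4:**
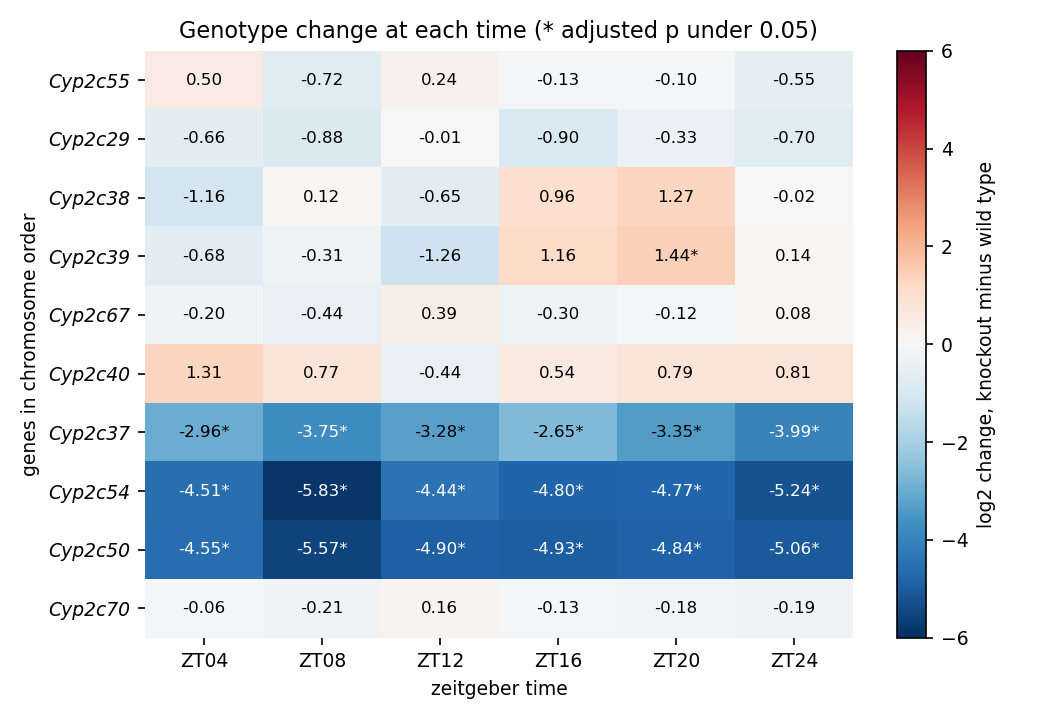
Log2 change, knockout minus wild type, of each gene (rows, in chromosome order) at each zeitgeber time (columns), with its value printed and an asterisk at an adjusted p under 0.05. The rows of Cyp2c37, Cyp2c54 and Cyp2c50 carry an asterisk at all 6 times with values of −2.65 to −5.83, and the only other asterisk is Cyp2c39 at ZT20, at 1.44.

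A single further call was made at 1 time. Cyp2c39 was higher in knockout at ZT20, where 1.46% of all genes were called higher, with 368 and 286 CPM in knockout against 119 and 123 CPM in wild type, and a log2 change of 1.44 (SE 0.34, edgeR adjusted p = 0.0360). The adjusted p was 0.0621 without the 6 wild-type libraries of replicate 1, and ran from 0.0162 to 0.303 when each library was left out in turn. Cyp2c38 had 136 and 115 CPM in knockout and 56.7 and 46.9 CPM in wild type at the same time, a log2 change of 1.27 that missed the threshold (edgeR adjusted p = 0.0588).

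The log2 change of Cyp2c39 and Cyp2c38 was below 0 at some times and above 0 at others, as were those of Cyp2c55, Cyp2c67, Cyp2c40 and Cyp2c70. Cyp2c39 had means of 198, 162, 232, 349.5, 327 and 226 CPM in knockout and 318, 201, 557, 156, 121 and 205 CPM in wild type, each from ZT04 to ZT24 (n = 2 per time). Both knockout libraries were below both wild-type libraries at ZT04 and ZT12, and above both at ZT16 and ZT20. At ZT12 the libraries held 277 and 187 CPM in knockout and 746 and 368 CPM in wild type. The log2 change was −0.68, −0.31, −1.26, 1.16, 1.44 and 0.14 in order of time. Cyp2c38 had log2 changes of −1.16, 0.12, −0.65, 0.96, 1.27 and −0.02.

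Whether these differences depended on time turned on the test. In the edgeR interaction test, no member and none of the 15090 genes (0%) was called. At an unadjusted p under 0.05, 2 of 10 members and 6.4% of all genes passed. These members were Cyp2c39 (edgeR adjusted p = 0.177) and Cyp2c38 (edgeR adjusted p = 0.352). DESeq2 called 129 genes, with an adjusted p of 5.03e-05 for Cyp2c39 and 0.00622 for Cyp2c38. Without the low-count filter edgeR called both too, among 639 genes. Without wild-type ZT12 replicate 1 the edgeR adjusted p was 0.350 for Cyp2c39 and 0.516 for Cyp2c38. The profiles of both genes correlated with each other across libraries at r of 0.96 in knockout and 0.89 in wild type (n = 12 each), a description of genes that share 6.88% of the windows of Cyp2c38 and 11% of those of Cyp2c39.

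A curve with a 24 h period was fitted to each genotype, its amplitude being the log2 height of the peak above the mean. In knockout 0 of 10 members were called rhythmic by edgeR, where 3.57% of all genes were. At an unadjusted p under 0.05 Cyp2c70 and Cyp2c40 passed in knockout, as did 15% of all genes. DESeq2 called 1 member, Cyp2c70, among 995 genes. In wild type 1 of 10 members was called (edgeR), again Cyp2c70, where 8.67% of all genes were. The Cyp2c70 curve peaked at 18.7 h (SE 0.97) in knockout, with an amplitude of 0.32 (SE 0.08, edgeR adjusted p = 0.0661). It peaked at 19.7 h (SE 0.87) in wild type, with an amplitude of 0.36 (SE 0.08, edgeR adjusted p = 0.0185), a 1.64-fold range of the fitted curve.

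Cyp2c70 averaged 720.5, 725, 829.8, 1036, 1071 and 925 CPM in knockout and 751, 839, 744, 1132, 1216 and 1058 CPM in wild type from ZT04 to ZT24 (n = 2 per time). In both genotypes the 3 later times had higher means than the 3 earlier ones. The difference of the 2 curves did not pass (edgeR adjusted p = 0.982). Its knockout curve passed when wild-type ZT12 replicate 1 or wild-type ZT20 replicate 1 was left out, at an adjusted p as low as 0.0317. It also passed without the 6 wild-type libraries of replicate 1 (0.00870), with replicate 2 alone (0.0461) and by DESeq2 (0.0159). Its wild-type call was lost without wild-type ZT20 replicate 2 (adjusted p = 0.0572), without ZT12 in both genotypes (0.0585) and with replicate 1 alone (0.489). It was also lost without the low-count filter (0.0595) and with time as a 6-level factor (0.087).

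The Cyp2c39 curve peaked at 18.2 h (SE 1.49) in knockout, with an amplitude of 0.53 (SE 0.20, edgeR adjusted p = 0.337). In wild type it peaked at 8.86 h (SE 1.0), with the largest wild-type amplitude of the 10 genes, 0.79 (SE 0.21), and missed the threshold (edgeR adjusted p = 0.0606, or 0.0974 without wild-type ZT12 replicate 1). DESeq2 called it in wild type (adjusted p = 0.0199), and so did edgeR with time as a 6-level factor (0.00568). Cyp2c38 peaked at 17.4 h (SE 1.45) in knockout and at 7.68 h (SE 1.47) in wild type, with amplitudes of 0.58 and 0.57. The fitted shift of the peak was 9.30 h (SE 1.80) for Cyp2c39 and 9.76 h (SE 2.07) for Cyp2c38, later in knockout. Both fitted wild-type peaks lie near a dip of the means at ZT08, so the curve describes these profiles poorly. At ZT04, ZT08 and ZT12 the wild-type means were 157, 52.9 and 165 CPM for Cyp2c38, and 318, 201 and 557 CPM for Cyp2c39. The shift is one of fitted curves, not of observed high points. The difference of curves was not called for any member or any of 15090 genes (0%) by edgeR, with 5.24% of all genes at an unadjusted p under 0.05. Cyp2c39 and Cyp2c38 were among these, with adjusted p of 0.579 and 0.787. DESeq2 called 23 genes and none of the members.

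**Figure D5:**
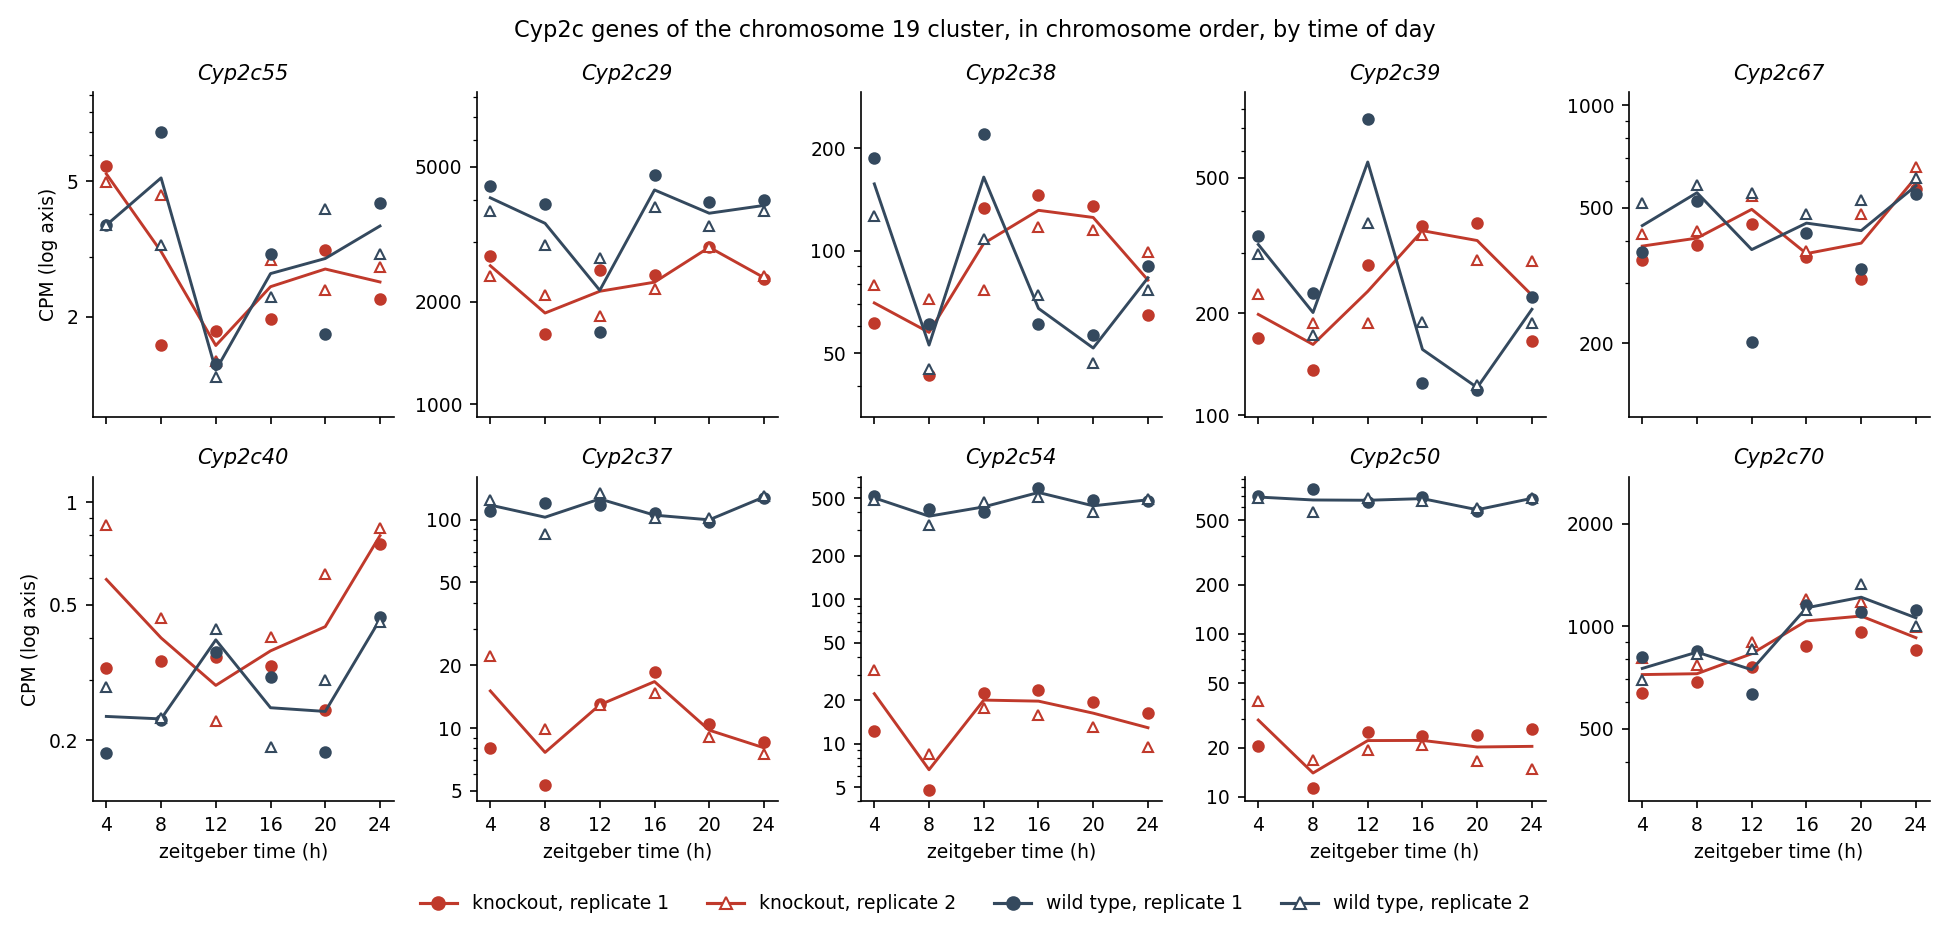
CPM on a log axis (y axis) against zeitgeber time in hours (x axis) for each gene, with knockout in red, wild type in dark blue, filled circles for replicate 1, open triangles for replicate 2 and lines through the mean of 2. Cyp2c37, Cyp2c54 and Cyp2c50 show 2 lines that stay apart at all 6 times, and Cyp2c70 has its highest means at ZT20 in both genotypes. The lines of Cyp2c38 and Cyp2c39 cross between ZT12 and ZT16, and those of Cyp2c38 also on both sides of ZT08 and between ZT20 and ZT24.

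The 3 genes with the largest log2 loss had no called rhythm in either genotype. In knockout the fitted amplitude was 0.11 (SE 0.14) for Cyp2c50, 0.19 (SE 0.22) for Cyp2c54 and 0.21 (SE 0.18) for Cyp2c37, and the last passed only without knockout ZT04 replicate 2 (edgeR adjusted p = 0.0179). In wild type it was 0.07 (SE 0.14) for Cyp2c50, 0.13 (SE 0.21) for Cyp2c54 and 0.07 (SE 0.18) for Cyp2c37, with edgeR adjusted p of 0.952, 0.930 and 0.967. Cyp2c50 lay between 14 and 29.6 CPM in the 6 knockout time means, and between 579 and 693 CPM in the 6 wild-type time means. Cyp2c55 had amplitudes of 0.53 (SE 0.23) in knockout and 0.51 (SE 0.23) in wild type and did not pass in either. Its lowest time mean was at ZT12 in both, 1.65 CPM in knockout and 1.39 CPM in wild type.

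Further protein-coding Cyp2c rows gave no call in the genotype test averaged over times. Of 5 protein-coding ones 2 passed the filter and none was called by edgeR, with 0 at an unadjusted p under 0.05. Cyp2c68, inside the cluster, averaged 109 ± 21.4 CPM in knockout and 100.4 ± 25.2 CPM in wild type, and Cyp2c23, farther along the chromosome, 351 ± 49.7 and 388 ± 93.5 CPM (SD, n = 12 each). Their log2 changes were 0.13 and −0.13. Of 24 protein-coding genes within 1 Mb outside the cluster, none of them a Cyp2c gene, 20 passed the filter. Of these 3 were lower and 4 higher, against 21.1% and 12.1% of all genes tested. The lower ones were Tctn3 (log2 change −0.86), Blnk (−1.51) and Rbp4 (−0.56), and the higher ones included Slc35g1 (0.45) and Ccnj (0.30). The nearest genes on each side, Hells and Pdlim1, did not pass, at 0.76 and −0.25.

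Among 25 other Cyp2 and Cyp3a genes that passed the filter, 6 were lower and 6 higher, with a median log2 change of −0.04. The shares over all genes tested were 21.1% lower and 12.1% higher. Cyp2b10, a phenobarbital-inducible P450, was lower at 1.5 ± 1.02 CPM in knockout and 35.8 ± 35.9 CPM in wild type, a log2 change of −4.29. The next largest fall of this list was that of Cyp2d11, with a log2 change of −2.18 at 0.112 ± 0.0716 CPM in knockout and 0.520 ± 0.240 CPM in wild type. The higher ones with the smallest p were Cyp2g1, Cyp2r1 and Cyp3a59, with log2 changes of 1.42, 0.63 and 0.77. Cyp2g1 averaged 1.66 CPM in knockout and 0.933 CPM in wild type. Por, the P450 oxidoreductase that feeds electrons to all of them, was lower at 288 ± 161 CPM in knockout and 525 ± 375 CPM in wild type, a log2 change of −0.80. It was 1 of 6 electron partners called lower, and Cyb5b and Pgrmc1 were called higher at 0.42 and 0.39.

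Of 12 epoxide hydrolases and other arachidonate oxygenases 6 were lower and 1 higher, with a median log2 change of −0.33. Beside these counts, 21.1% of all genes tested were lower and 12.1% higher. The soluble epoxide hydrolase Ephx2, which opens the epoxides made by Cyp2c enzymes, was lower by −0.39, the microsomal Ephx1 by −0.47, and the fatty acid hydroxylases Cyp4a10 and Cyp4a14 by −5.83 and −3.37. Cyp2j5, another epoxygenase, was higher at 0.51. Of 9 bile acid enzymes that passed the filter, beside Cyp2c70, 5 were lower and 1 higher. Slc27a5 (−1.14), Cyp39a1 (−1.49) and Cyp8b1 (−0.98) led the lower ones, and Cyp7a1, the rate-limiting enzyme of bile acid synthesis, was the higher one at 1.18.

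Regulators known to act on Cyp2c genes were lower in 6 of 16 cases and higher in 1, with a median log2 change of −0.23. Among all genes tested 21.1% were lower and 12.1% higher. Nr1i3, which encodes the receptor CAR, averaged 27.7 ± 6.60 CPM in knockout and 54.4 ± 14.2 CPM in wild type, a log2 change of −0.97 (edgeR adjusted p = 3.79e-05). Foxa3 (−0.69), Nfil3 (−0.58), Cebpa (−0.39), Nr1i2 (−0.37) and Hnf4a (−0.35) were the other lower ones, and Ahr was higher at 0.68. In the growth hormone axis, which sets the sex-dependent Cyp2c genes, 0 of 9 were lower by edgeR and 2, Igf1 and Onecut1, were higher at 0.38 and 0.63.

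Across all 24 libraries, the gene outside the Cyp2c group most like each of the 3 lost genes in log2 CPM was Nlrp12 for Cyp2c50 (r = 0.97), Ftl1-ps1 for Cyp2c54 (r = 0.96) and the deleted Hlf itself for Cyp2c37 (r = 0.95), among 12660 protein-coding genes. These values rest on the gap between the genotypes. Over the 12 wild-type libraries alone the closest were Pitrm1 for Cyp2c50 (0.83), Notch1 for Cyp2c54 (0.87) and Smpdl3b for Cyp2c37 (0.78). For Cyp2c38 and Cyp2c39 the same gene, Hsdl2, was closest over 24 libraries, at 0.81 and 0.83. For Cyp2c70 it was Acmsd at 0.79 over 24 libraries and Scd2 at 0.93 over the 12 wild-type ones. All are descriptions of libraries that share depth, composition and genotype.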

How the data were processed

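The authors deposited a table of raw counts per Ensembl gene for 24 liver mRNA libraries, from TruSeq Stranded mRNA libraries per the labels. The submitters' processing notes name STAR 2.4.0i and mm10. How reads were counted, on which annotation and with which strand setting, is not given in the sources used here. Symbols and coordinates came from GENCODE M21 on mm10, which matched 54409 of 54532 rows. All 24 columns were used.

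Genes were tested in R 4.3.3 by the quasi-likelihood F-test of edgeR 4.0.16 with TMM scaling and filterByExpr (minimum count 10), adjusted by Benjamini-Hochberg over 15090 genes. A fit of 12 group means gave genotype as a mean over times and at each time, and the interaction. A second fit held a 24 h cosine and sine per genotype. CPM values use TMM-scaled library sizes. Likeness used log2 CPM with a prior count of 2. Methods were tested on simulated data.

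Alternatives were DESeq2 1.42.0, RLE or no scaling factors, no filter, a replicate block, a GC and length correction, single replicate sets, time as a factor, ZT12 left out, and each library left out. The interaction alternatives and those without ZT12 were added after seeing the data. Sequences came from the RefSeq promoter table (GRCm38.p6) and GENCODE transcripts, aligned globally with Biopython 1.88.

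The 10 genes, the lists and the tests were chosen with earlier results of these data known. All 10 genes, the deleted genes, the closest gene in profile to each, and up to 3 called genes per direction and list by smallest p were to be named. A gene under this rule is not reported here. Cyp2d11 aside, further list genes in the text (among them Cyp2c68, Cyp2c23, Hells, Pdlim1, Ephx1, Cebpa, Nr1i2 and Hnf4a) were named after their values were seen. The list of other Cyp2 and Cyp3a genes was narrowed, after seeing its rows, to symbols with a letter after Cyp2.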

Additional observations from a re-analysis of the deposited data

How the results depend on the processing

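The loss of Cyp2c37, Cyp2c54 and Cyp2c50 kept its direction and its call under every alternative run, averaged and at each time. Averaged, the log2 change ran from −3.56 to −3.21 for Cyp2c37, −5.21 to −4.80 for Cyp2c54 and −5.42 to −4.85 for Cyp2c50 over the alternatives other than omissions of 1 library. The 4 genes called lower stayed 4 except for 5 without the 6 wild-type libraries of replicate 1, which added Cyp2c67 (−0.32, edgeR adjusted p = 0.0246), and 3 with replicate 1 alone, which lost Cyp2c29. The Cyp2c29 change was −0.91 under the replicate block with GC and length correction and −0.45 with no scaling factor.

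Log2 changes that did not pass turned sign in 9 cases, beside 1 among omissions of a library. Cyp2c38 was −0.29 and Cyp2c39 −0.15 under the replicate block with GC and length correction, and −0.15 and −0.11 with replicate 1 alone. Cyp2c55 was 0.080 and Cyp2c70 0.0070 with replicate 2 alone. Cyp2c67 was 0.053 with replicate 1 alone and 0.016 with no scaling factor, and ran from −0.19 to 0.053 with each library left out, positive without wild-type ZT12 replicate 2. Cyp2c70 was 0.017 with no scaling factor.

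The count of members called higher on average was 0 in place of 1 under no filter, block with GC, either replicate alone, without wild-type replicate 1, and DESeq2. In that order, genes called in either direction numbered 6236, 3681, 5081 (replicate 1), 1963 (replicate 2), 2855 and 5250. The main fit had 3180 lower and 1827 higher. At ZT20 the count of members was 2 with no scaling factor, no filter or DESeq2, and 0 under the replicate block (Cyp2c39 adjusted p = 0.0943) or without wild-type replicate 1. In that order, genes called in either direction numbered 486, 3130, 1228, 90 and 355, where the main fit had 372 lower and 221 higher. At ZT16 the count of members was 2 with no filter and 1 with DESeq2, in place of 0, with 1533 and 430 genes called in either direction. Rhythmic members in knockout numbered 1 under the replicate block (Cyp2c70 adjusted p = 0.0328), replicate 2 alone or DESeq2 and 3 without wild-type replicate 1, in place of 0. Over all genes these settings called 702, 789, 995 and 2739 knockout rhythms in that order, against 538 in the main fit. In wild type, rhythmic members numbered 2 with time as a factor (Cyp2c38 and Cyp2c39, without Cyp2c70) or DESeq2 and 0 with replicate 1 alone or without ZT12, in place of 1. Over all genes these settings called 1005, 1909, 0 and 449 wild-type rhythms in that order, against 1308 in the main fit. Interaction calls of members were 2 with no filter (639 genes in all) or DESeq2 (129 in all), in place of 0. Rhythm differences were 2 with no filter (72 in all), in place of 0. Under the replicate block the edgeR interaction adjusted p was 0.762 for Cyp2c39 and 0.915 for Cyp2c38. The causes were not tested.

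With each library left out in turn, the counts ran from 0 to 1 for higher on average, 0 to 2 for higher at ZT20, 0 to 1 for higher at ZT12, 3 to 4 for lower at ZT12 and at ZT16, 0 to 1 for knockout rhythms and 0 to 2 for wild-type rhythms.

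Libraries of the same letter and time deviated together across genes with r of 0.184, 0.123, 0.231, 0.0705, 0.0541 and 0.0842 from ZT04 to ZT24 (15090 genes), and over 0.1 at all 6 times in the 11517 genes above a mean log2 CPM of 1. As not all passed 0.1 over all genes, the letters are treated as sharing only a number. DESeq2 called 129 genes for the interaction and 23 for the rhythm difference where edgeR called 0, and 995 knockout rhythms where edgeR called 538. Leaving out the scaling factors shifts every averaged log2 change by 0.12. Beside the changes above, the replicate block moved no count of member calls. With 2 libraries per time, single-time values have SEs of 0.20 to 0.55 on the log2 scale, and at 3 to 15 counts Cyp2c40 is limited by depth.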
